A study of Mus musculus with 48 samples.

Results

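The 9 interferon-stimulated genes, Rsad2, Usp18, Ifi44, Isg15, Ifit1, Ifit2, Ifit3, Irf7 and Oasl2, were followed through mouse osteocyte-like cells and mouse bone. They were taken by name, as the rows of 4 expression tables that carry these symbols, and are 9 of the 55335 gene rows in each table. Members and the gene lists below were chosen with earlier results of these data known. Their counts and medians set beside all genes are therefore descriptive. All 9 were listed in every table. The series profiled transcriptional changes of osteocytes under stress and with age, using poly(A) RNA sequencing, and 27 of its 48 samples, in 9 groups of 3 libraries, had values here. Values are FPKM, which divide fragments by transcript length and library size, so levels can be set beside each other between genes.

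All groups are labelled as C57BL/6J wild type. MLO-Y4 is a mouse osteocyte-like line, derived from bone cells immortalised with a large T antigen transgene under the osteocalcin promoter, and all MLO-Y4 groups are this 1 line. One table holds 4 MLO-Y4 groups. In the first pair, cells were kept for 1 h in fresh medium with oligomycin A, which blocks the mitochondrial ATP synthase, at a working concentration of 50 µM, or with the same volume of its solvent DMSO (vehicle). In the second pair, called recipients below, untreated cells received the supernatant of oligomycin A or vehicle cultures for 2 h. The protocol does not say that the drug was removed from the supernatant. A second table holds MLO-Y4 cells stimulated with 2 µM ADP for 2 h and cells with no treatment. Another table holds bone fragments (long bones and parietal bones) of mice aged 1 month, labelled control and transfer. Medium from 24 h cultures of young or old bone was added to recipient fragments for 48 h, and it is not labelled whether a group's medium came from young or old donors. The last table holds femoral and tibial cortical bone of mice aged 18 months with no treatment. Its protocol text can be read as harvest together with marrow. Whether replicates are separate cultures or animals is not labelled. The p-values therefore cover no more than the spread among these libraries, and that spread may be technical.

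Interferons bind cell-surface receptors that switch on JAK kinases, and phosphorylated STAT proteins join IRF9 in a complex that binds the interferon-stimulated response element (ISRE) in promoters. The genes switched on there encode proteins that block viral replication, together with brakes and amplifiers of the pathway. Some of them, the IFIT genes and Rsad2 among these, are also switched on by IRF3 downstream of nucleic acid sensors, without interferon itself.

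Because an ISRE is the textbook element shared by such genes, RefSeq promoter windows (GRCm38.p6, 250 bases before to 50 after the gene start) were searched for GAAANNGAA on both strands. A window was found for 8 of 9 members, all but Usp18. The motif was present in 5 of these 8 genes (62.5%), against 2638 of all 27025 genes with a window (9.76%). Counted by window, 2812 of all 32851 (8.56%) held it. The matching stretches are printed 5′ to 3′ on the gene's strand with matches in capitals. They show that Isg15, Ifit1 and Ifit3 each hold 3 matches, overlapping in Isg15 and Ifit1, against 1 in Rsad2 and Ifi44.
Rsad2, chr12:26456543-26456591, minus strand: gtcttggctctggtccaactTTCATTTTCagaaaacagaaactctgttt
Ifi44, chr3:151749905-151749933, minus strand: aaacagaggaaaagtttctcTTCATTTTC
Isg15, chr4:156200856-156200916, minus strand: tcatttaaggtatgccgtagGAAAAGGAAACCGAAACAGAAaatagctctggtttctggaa
Ifit1, chr19:34640760-34640833, plus strand: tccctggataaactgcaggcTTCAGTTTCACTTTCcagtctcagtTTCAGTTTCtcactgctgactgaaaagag
Ifit3, chr19:34583354-34583455, plus strand: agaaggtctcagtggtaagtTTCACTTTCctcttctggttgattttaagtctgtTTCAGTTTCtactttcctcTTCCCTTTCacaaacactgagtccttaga

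In Isg15 the matches read forward, and in the other 4 genes they lie on the opposite strand. The first match began 119 bases upstream of the start in Rsad2, 78 in Isg15, 109 in Ifit1, 155 in Ifit3 and 3 in Ifi44. The windows of Ifit2, Irf7 and Oasl2 held no match, which says only that these letters are not in these windows. A different STAT motif, TTCNNNGAA, was found in 1 of the 8 members, Ifit2, and in 9.55% of all genes with a window. A match is a description of the sequence and not a measured binding site.

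In GENCODE M21 (GRCm38) all 9 members are protein-coding genes. Ifit2 (chr19:34550694-34576419), Ifit3 (chr19:34583531-34588731) and Ifit1 (chr19:34640871-34650009) lie in 1 cluster on the plus strand of chromosome 19. Irf7 lies at chr7:141262706-141266481 on the minus strand, Isg15 at chr4:156199424-156200818 on the minus strand and Usp18 at chr6:121245906-121270917 on the plus strand. Rsad2 lies at chr12:26442746-26456452 and Ifi44 at chr3:151730922-151749960, both on the minus strand, and Oasl2 at chr5:114896936-114912234 on the plus strand. The values of 3 members carry extra uncertainty, because it is not stated whether counting used strand or how shared reads were split. Usp18 overlaps the antisense lincRNA Gm44148 over 15715 bases, Irf7 overlaps the end of Phrf1 by 45 bases, and Ifit3 has a near-identical copy, Ifit3b. Gm44148 stayed between 0 and 0.697 FPKM in the 12 libraries of the oligomycin A table, but stood at 2.82, 2.05 and 2.47 FPKM in old bone and reached 4.34 FPKM in young transfer replicate 1, so Usp18 in bone is less certain.

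Approximate depth, read from the steps between low values, was 15.0 to 25.0 M fragments (M, mega) in MLO-Y4 libraries and only 2.16 to 5.82 M in young bone, where the estimate is rough. It could not be read reliably in old bone. Transcripts of rRNA-like, 7S and satellite genes took 28.2% of all FPKM in vehicle replicate 2, against 0.350% to 0.548% in the other 11 libraries of that table. They took 13.2% to 90.9% in young bone and 4.64% to 7.40% in old bone. In MLO-Y4 libraries the leukocyte markers summed to at most 0.612 FPKM with Laptm5 at 0 throughout, and of the macrophage markers Adgre1 and C1qa were at 0 in all 12 libraries of the oligomycin A table, so the macrophage sum of 19.1 to 39.7 FPKM was mostly Cd14. The osteocyte marker Sost was at 0 in all MLO-Y4 libraries, and Dmp1, Mepe and Fgf23 were at 0 in the vehicle and oligomycin A groups, while Pdpn and Gja1 were expressed. Old bone held high summed levels of neutrophil (97551 to 102907 FPKM) and erythroid markers (257551 to 276661 FPKM), against an osteocyte sum of 41.3 to 206 FPKM.

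**Figure D1:**
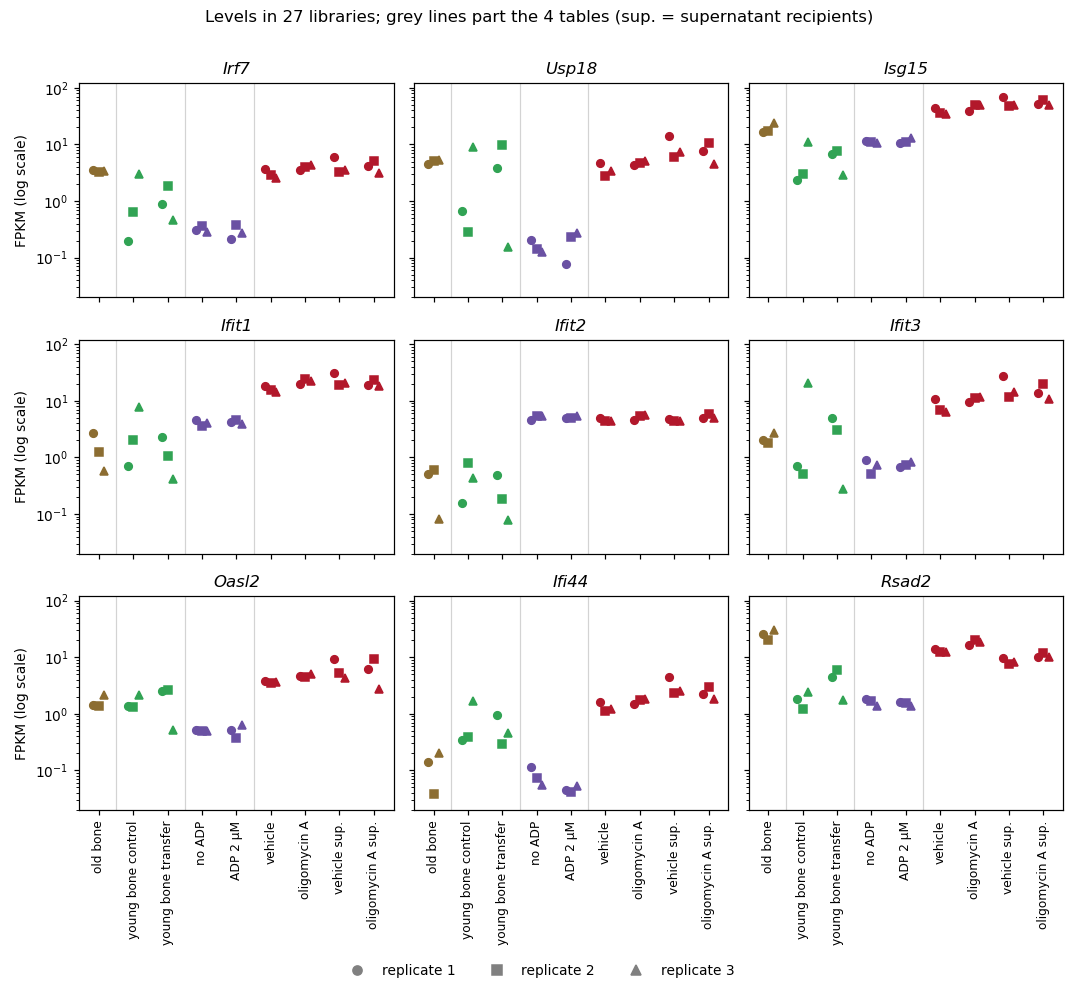
Level of each interferon-stimulated gene in each of the 9 groups, in FPKM, on a log scale with 1 point per library and grey lines between the 4 tables. Isg15 has the highest mean in all 6 MLO-Y4 groups (11.0 to 56.4 FPKM), while Rsad2 leads in old cortical bone (mean 25.0 FPKM).

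Isg15, a ubiquitin-like protein that is attached to other proteins, was the most abundant member in every MLO-Y4 group, with means from 11.0 FPKM in untreated cells of the ADP table to 56.4 FPKM in vehicle recipients. Ifit1, which binds the ends of viral RNAs, followed in all 4 groups of the oligomycin A table, at means of 16.1 (vehicle), 22.0 (oligomycin A), 23.7 (vehicle recipients) and 20.3 FPKM (oligomycin A recipients). Ifi44 was the lowest member in these 4 groups, with means of 1.30 to 3.12 FPKM. The tables may have been normalised separately, so levels across tables are set side by side without a test.

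The untreated cells of the ADP table and the vehicle cells of the oligomycin A table are the same line but had different levels of most members. In untreated ADP-table cells 5 of 9 members averaged under 1 FPKM, namely Usp18 (0.158), Ifi44 (0.0807), Ifit3 (0.716), Irf7 (0.314) and Oasl2 (0.503). In vehicle cells these had means of 3.60, 1.30, 7.98, 3.08 and 3.63 FPKM. Ifit2, by contrast, was at 5.10 ± 0.402 FPKM (SD, n = 3) in the untreated cells and at 4.56 ± 0.314 (SD, n = 3) in the vehicle cells. Stat2, a subunit of the ISRE-binding complex, had means of 3.85 and 14.5 FPKM in the same order, and Irf9 had 1.38 and 4.53 FPKM. What else differs between the tables was not tested.

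Direct treatment with oligomycin A was compared with vehicle first. Rsad2, encoding viperin, a radical SAM enzyme that makes a chain-terminating nucleotide, was the 1 member of 9 that rose. All 9 members had positive differences, with a median log2 difference of 0.31 against -0.00 over all 11902 genes tested, but 8 did not pass the threshold. The threshold, used throughout, was a Benjamini-Hochberg adjusted p under 0.05 from limma on log2(FPKM + 1). At an unadjusted p under 0.05 there were 2 of 9 members and 2641 of all 11902 genes, so this count is near the share of all genes. Over all genes 3.71% were called higher and 1.63% lower.

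Rsad2 stood at 13.8, 12.6 and 12.4 FPKM in vehicle replicates 1, 2 and 3 and at 16.4, 20.1 and 18.5 FPKM with oligomycin A. Every treated library was above every vehicle library. Here and below, a lack of overlap only describes the libraries, as no share of all genes without overlap is given beside it. The log2 difference was 0.47 ± 0.10 (SE), with a 95% interval of 0.25 to 0.69 and a limma adjusted p of 0.0228. The call was lost without vehicle replicate 2 (adjusted p = 0.0521), vehicle replicate 3 (0.0774), oligomycin A replicate 2 (0.0900) or oligomycin A replicate 3 (0.0754), and with no filter on low values (0.0618), over a range of 0.0156 to 0.0900 in 25 alternatives. In those alternatives the log2 difference stayed between 0.41 and 0.61.

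The IFIT proteins bind viral RNA or hold back its translation. Ifit1 stood at 18.3, 15.6 and 14.4 FPKM with vehicle and at 20.1, 24.0 and 22.1 FPKM with oligomycin A. Its libraries did not overlap either, but the log2 difference of 0.43 (95% interval 0.07 to 0.79) did not pass, with a limma adjusted p of 0.152. It passed in 1 of 25 alternatives, without replicate 1 of the vehicle recipients (adjusted p = 0.0473, over a range to 0.335). Ifit3, from the same gene cluster as Ifit1, had 10.8, 6.77 and 6.36 FPKM with vehicle and 9.64, 11.0 and 11.5 FPKM with oligomycin A. Vehicle replicate 1 lay inside the treated range, and the limma adjusted p was 0.440. Ifit2 differed by 0.15 on the log2 scale (limma adjusted p = 0.295).

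Among the other members, Oasl2, a protein related to the 2'-5' oligoadenylate synthetases, had 3.78, 3.46 and 3.67 FPKM with vehicle and 4.58, 4.50 and 5.14 FPKM with oligomycin A. These libraries did not overlap, and the limma adjusted p was 0.602, in a shared fit that also takes in the spread of Oasl2 in recipients (2.74 to 9.30 FPKM). Isg15 stood at 43.3, 35.8 and 34.7 FPKM with vehicle and at 39.6, 50.3 and 49.0 FPKM with oligomycin A. Irf7, the transcription factor that amplifies interferon production, stood at 3.74, 2.91 and 2.58 FPKM with vehicle and at 3.55, 4.08 and 4.30 FPKM with oligomycin A, a log2 difference of 0.29. Usp18, the protease that removes Isg15 and blocks the type I receptor, differed by 0.32 on the log2 scale, and Ifi44, a less well understood antiviral protein, by 0.24. In each of these 4 genes the highest vehicle library lay above the lowest treated library.

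**Figure D2:**
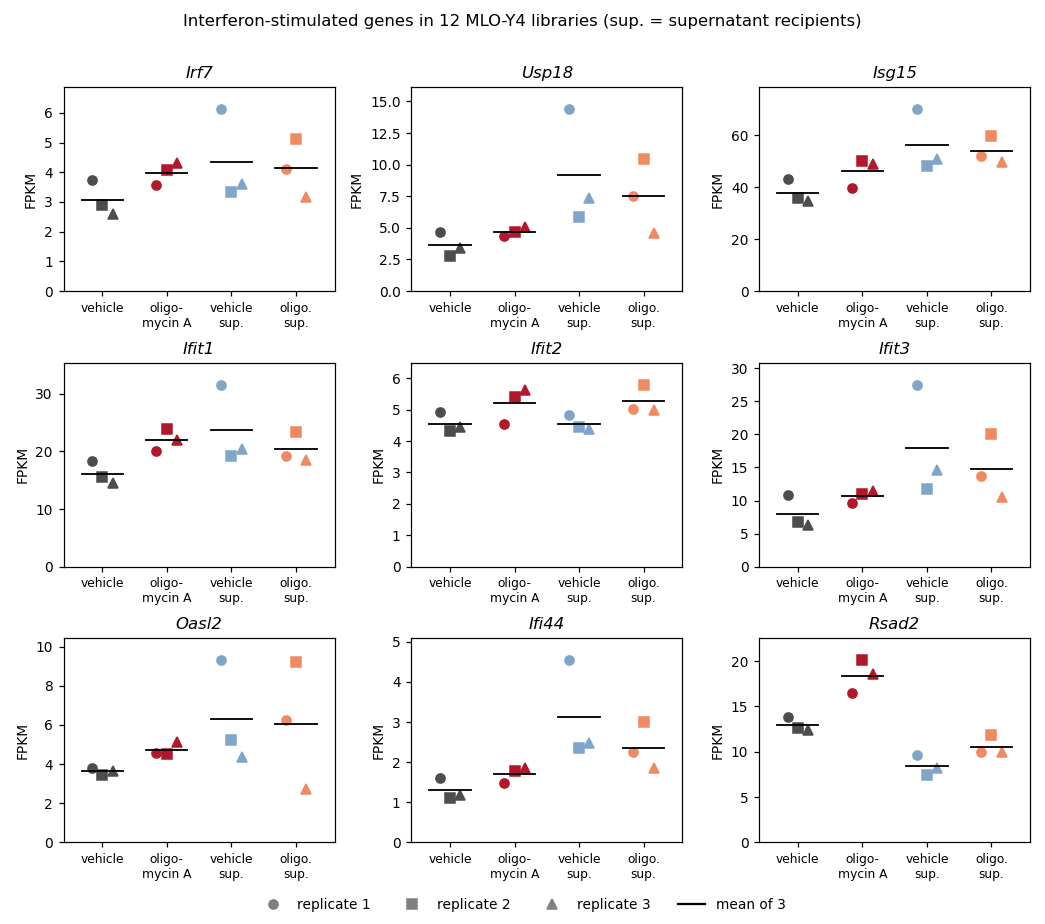
FPKM of each member in the 12 libraries of the oligomycin A table, by group, with 1 point per library and a line at the mean of 3. Rsad2 is highest with oligomycin A (16.4 to 20.1 FPKM) and lowest in vehicle recipients (7.43 to 9.59 FPKM). Usp18, Ifit3, Ifi44 and Isg15 have their lowest mean with vehicle (3.60, 7.98, 1.30 and 38.0 FPKM), as do Ifit1, Irf7 and Oasl2 (16.1, 3.08 and 3.63 FPKM).

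In recipients, oligomycin A supernatant was compared with vehicle supernatant. No member passed the threshold (limma, 0 of 9 called, against 0.386% of all genes called in either direction). At an unadjusted p under 0.05 there were 1 of 9 members, against 962 of all 11902 genes. The median log2 difference of the members was -0.10 against -0.00 over all genes, and 2 of 9 were positive. These counts rested on single libraries. Without replicate 1 of the vehicle recipients 8 of 9 were positive with a median of 0.12, and without replicate 3 of the oligomycin A recipients 6 of 9 were positive with a median of 0.04. Rsad2 stood at 9.59, 7.43 and 8.16 FPKM with vehicle supernatant and at 9.95, 11.8 and 9.92 FPKM with oligomycin A supernatant. The libraries did not overlap, and the log2 difference was 0.30 (95% interval 0.08 to 0.52, limma adjusted p = 0.379). Ifit2, with 4.82, 4.46 and 4.37 FPKM against 5.02, 5.80 and 4.98 FPKM, also did not overlap, at a log2 difference of 0.17 (limma adjusted p = 0.644).

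The intervals of the other 7 members were wide and each included 0. For Usp18 the log2 difference was -0.23 with a 95% interval of -0.89 to 0.43, from libraries at 14.4, 5.89 and 7.33 FPKM with vehicle supernatant and 7.55, 10.4 and 4.61 FPKM with oligomycin A supernatant. The range within each group was larger than the gap between their means of 9.21 and 7.53 FPKM. For Ifit3 the interval was -0.86 to 0.42, from 27.5, 11.8 and 14.5 FPKM against 13.7, 20.1 and 10.6 FPKM. For Isg15 it was -0.37 to 0.27, and for Oasl2, at 6.24, 9.20 and 2.74 FPKM with oligomycin A supernatant, -0.79 to 0.58.

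The difference between the recipient response and the direct response was tested in the same fit. It was negative for 8 of 9 members, with a median of -0.41 on the log2 scale against -0.00 over all genes. The median was -0.16 without replicate 1 of the vehicle recipients, -0.27 without replicate 3 of the oligomycin A recipients and -0.64 without replicate 2 of the oligomycin A recipients. Oasl2 went from -0.41 to -0.01 without replicate 3 of the oligomycin A recipients. No member passed (limma, 0 of 9 called, against 0.445% of all genes called). At an unadjusted p under 0.05 there were 1 of 9 members, against 1276 of all 11902 genes. Ifit1 had -0.62 ± 0.23 (SE, limma adjusted p = 0.361) and Ifit2, the exception in sign, had 0.02. Exposure lasted 1 h in treated cells and 2 h in recipients, so duration and route cannot be told apart in this comparison.

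Recipients were then set against treated cells with the same additive. Vehicle recipients differed from vehicle cells in receiving conditioned rather than fresh medium and in lasting 2 h rather than 1 h, and these cannot be told apart. The members that rose were Usp18, Ifit3, Ifi44 and Isg15, and Rsad2 fell, which makes 4 of 9 higher and 1 of 9 lower. Over all genes 9.49% were called higher and 5.18% lower. The median log2 difference was 0.54 for the members and 0.03 for all genes. At an unadjusted p under 0.05 there were 6 of 9 members, against 3569 of all 11902 genes. Without replicate 1 of the vehicle recipients the members' median was 0.32. This comparison uses the same vehicle and recipient libraries as those above and is not independent of them. Some summed cell type markers rose with it without overlap. The 6 macrophage markers, mostly Cd14 and with Adgre1 and C1qa at 0, went from 19.1 to 19.9 FPKM in vehicle cells to 27.1 to 33.3 FPKM in vehicle recipients. The 4 osteoclast markers went from 5.90 to 6.42 FPKM to 9.32 to 12.4 FPKM, mostly Ctsk, the 6 neutrophil markers from 4.40 to 5.45 FPKM to 6.67 to 7.80 FPKM with S100a9 and Ngp at 0, and the 7 osteocyte markers from 219 to 257 FPKM to 309 to 330 FPKM. Their part in the result was not tested.

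Usp18 went from 4.66, 2.75 and 3.40 FPKM in vehicle cells to 14.4, 5.89 and 7.33 FPKM in vehicle recipients, a log2 difference of 1.08 ± 0.30 (SE, limma adjusted p = 0.0332). Ifit3 went from 10.8, 6.77 and 6.36 to 27.5, 11.8 and 14.5 FPKM, a log2 difference of 1.02 ± 0.29 (SE, limma adjusted p = 0.0384). In both, replicate 1 of the recipients was the highest recipient library, and all recipient libraries were above all vehicle libraries. Ifi44 went from 1.60, 1.10 and 1.19 to 4.54, 2.34 and 2.48 FPKM, a log2 difference of 0.81 ± 0.19 (SE, limma adjusted p = 0.0154).

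Isg15 stood at 43.3, 35.8 and 34.7 FPKM in vehicle cells and at 70.2, 48.1 and 50.8 FPKM in vehicle recipients, with no overlap. Its log2 difference of 0.54 ± 0.15 (SE) had a limma adjusted p of 0.0296. Isg15 and its protease Usp18 both rose. Ifit1 stood at 18.3, 15.6 and 14.4 FPKM against 31.6, 19.1 and 20.5 FPKM, also without overlap, and its log2 difference of 0.50 had a limma adjusted p of 0.0632, or 0.0390 without replicate 2 of the vehicle recipients (range to 0.172). Oasl2, at 3.78, 3.46 and 3.67 against 9.30, 5.22 and 4.36 FPKM, had a log2 difference of 0.60 (limma adjusted p = 0.225), again with no overlap. Irf7, at 6.13, 3.32 and 3.59 FPKM in vehicle recipients, overlapped with vehicle cells (0.36, limma adjusted p = 0.227).

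Rsad2 moved the other way. It stood at 13.8, 12.6 and 12.4 FPKM in vehicle cells and at 9.59, 7.43 and 8.16 FPKM in vehicle recipients, a log2 difference of -0.57 ± 0.10 (SE, limma adjusted p = 0.00424). Ifit2, at 4.91, 4.33 and 4.43 against 4.82, 4.46 and 4.37 FPKM, had a log2 difference of -0.00 with a 95% interval of -0.18 to 0.18. The members did not share 1 direction here, with 4 called higher, 1 called lower and 4 not called.

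The 4 rises rested on few libraries. Without vehicle replicate 2, the library with the high rRNA-like share, none of the 4 passed (limma adjusted p 0.0516 to 0.105 for Ifi44, Usp18 and Isg15 and 0.108 for Ifit3), with log2 differences of 0.75, 0.94, 0.51 and 0.94. Without replicate 1 of the vehicle recipients, Ifi44 was the 1 member that still passed as higher, and the log2 difference of Usp18 dropped from 1.08 to 0.74 and that of Ifit3 from 1.02 to 0.69. Without vehicle replicate 3 Ifi44 again passed alone as higher, and without replicate 3 of the vehicle recipients Ifi44 and Isg15 passed. The call of Ifit3 was also lost without any 1 of the 3 oligomycin A libraries or without replicate 1 of the oligomycin A recipients (limma adjusted p 0.0523 to 0.0534). Over all alternatives run the limma adjusted p ranged from 0.0120 to 0.0519 for Ifi44, 0.0200 to 0.105 for Usp18, 0.0246 to 0.0916 for Isg15 and 0.0250 to 0.116 for Ifit3. The fall of Rsad2 passed in 23 of 25 alternatives and was not called when libraries were rescaled to one total FPKM (limma adjusted p = 0.0708) or to one total without mitochondrial genes (0.0893, the highest of a range from 0.00248).

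The oligomycin A pair, recipients of oligomycin A supernatant against treated cells, had 1 member called. Rsad2 fell, from 16.4, 20.1 and 18.5 FPKM to 9.95, 11.8 and 9.92 FPKM, and no libraries overlapped. The log2 difference was -0.74 ± 0.10 (SE, limma adjusted p = 0.000616), and it passed in 25 of 25 alternatives. None of the 9 was called higher, against 10.4% of all genes, and 7.73% of all genes were called lower. Usp18, at 4.35, 4.64 and 5.05 FPKM in treated cells and 7.55, 10.4 and 4.61 FPKM in recipients, had a log2 difference of 0.53 (limma adjusted p = 0.246). The members' median was 0.18 against 0.03 over all genes, but -0.04 without replicate 2 of the oligomycin A recipients, 0.11 without replicate 1 of those recipients and 0.11 without replicate 1 of the treated cells. Macrophage markers summed to 19.7 to 24.2 FPKM in treated cells and 31.7 to 39.7 FPKM in recipients. The osteocyte (239 to 264 against 302 to 339 FPKM), osteoclast (6.41 to 7.31 against 8.90 to 10.6) and neutrophil sums (3.78 to 4.81 against 5.98 to 7.09) were also higher in recipients. The osteoblast (410 to 423 against 368 to 404 FPKM) and B lineage sums (0.147 to 0.210 against 0 to 0.0422) were lower. The part of these markers was not tested.

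Across the 4 groups the levels of Rsad2 were, from high to low, oligomycin A (16.4 to 20.1 FPKM), vehicle (12.4 to 13.8), oligomycin A recipients (9.92 to 11.8) and vehicle recipients (7.43 to 9.59). No neighbouring groups in this order overlapped, although the 2 recipient groups did not differ past the threshold (limma adjusted p = 0.379) and vehicle cells were not tested against oligomycin A recipients. Ifit2 had the narrowest range, from 4.33 to 5.80 FPKM over all 12 libraries.

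**Figure D3:**
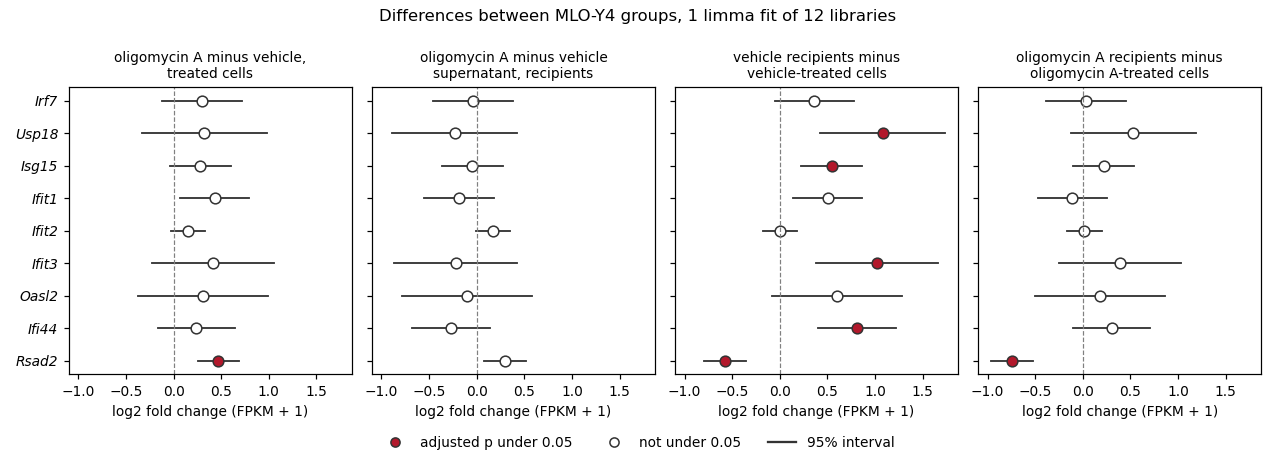
Log2 difference on the log2(FPKM + 1) scale with its 95% interval, for each member in 4 comparisons of the oligomycin A table, filled where the adjusted p is under 0.05. Rsad2 is positive with oligomycin A (0.47) and negative in both comparisons of recipients with treated cells (-0.57 and -0.74), while Usp18, Ifit3, Ifi44 and Isg15 lie above 0 in the vehicle pair.

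Libraries of 1 group differed from each other in nearly all members at once. Vehicle replicate 1, vehicle recipient replicate 1 and oligomycin A recipient replicate 2 were the highest of their groups for 9 of 9 members. Oligomycin A recipient replicate 3 was the lowest of its group for 9 of 9, and oligomycin A replicate 1 for 8 of 9, all but Oasl2. After the group means were taken out, the deviation of each member correlated with the mean deviation of the other 8 at r from 0.77 (Ifit2 and Oasl2) to 0.98 (Ifi44) over the 12 libraries, which share depth and scaling. In levels, with group means left in, 8 members had r from 0.55 (Ifit2) to 0.98 (Irf7), and Rsad2 had -0.15.

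The size of these shared deviations differed by gene. Within a group the highest library was up to 3.35 times the lowest for Oasl2, 2.44 times for Usp18 and 2.33 times for Ifit3, but at most 1.24 times for Ifit2. What sets these libraries apart was not tested.

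**Figure D4:**
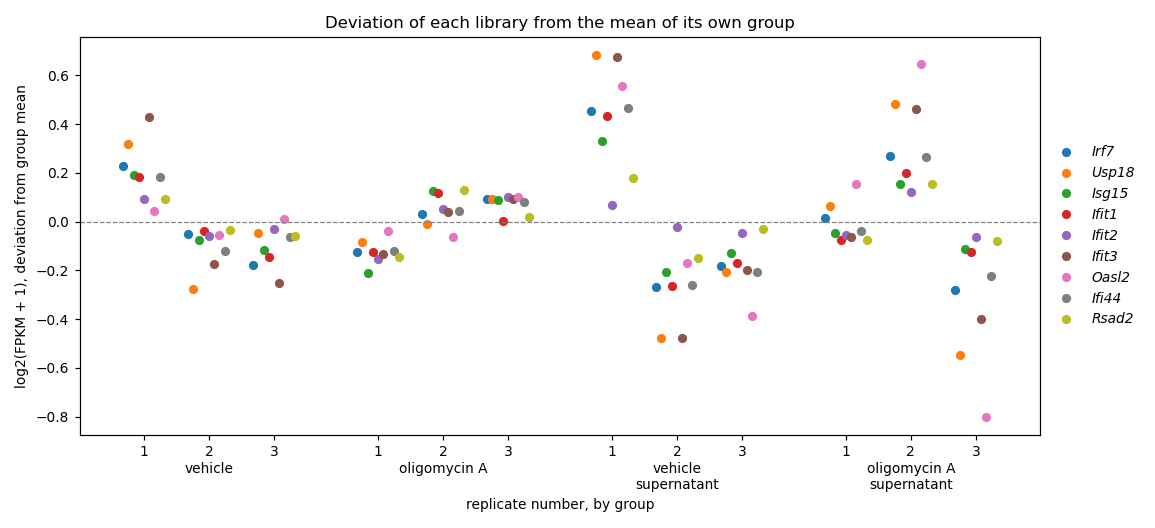
Deviation of each library from the mean of its own group, on the log2(FPKM + 1) scale, for the 9 members in the 12 libraries of the oligomycin A table. Points of 1 library lie mostly on the same side of 0, above it for all 9 members in vehicle recipient replicate 1 and below it for all 9 in oligomycin A recipient replicate 3.

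By likeness to the mean standardised level of the 9 members over the 12 libraries, among 6575 other genes with a mean of at least 5 FPKM, the 5 most alike were Gbp3 (Pearson r = 0.96), Trim30a (0.96), Irf9 (0.96), Gbp7 (0.95) and Ifih1 (0.94). Gbp3 and Gbp7 are guanylate-binding proteins, Irf9 is the DNA-binding subunit of the ISRE-binding complex, and Ifih1 (MDA5) senses double-stranded RNA. Gbp3 had means of 7.16, 8.54, 10.0 and 9.62 FPKM in vehicle cells, oligomycin A cells, vehicle recipients and oligomycin A recipients. The r values describe these 12 libraries, which share depth and scaling.

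Interferon ligands were almost undetected in MLO-Y4. Of 21 ligand genes none reached a mean of 1 FPKM over the oligomycin A table or the ADP table. Ifnb1, the first type I interferon made by most cells, was above 0 in all 3 oligomycin A libraries, at 0.0815 to 0.130 FPKM, and was listed at 0 in all libraries of the other 5 MLO-Y4 groups. These are very low values with no test. In young bone the highest ligand mean was that of Ifnl3, at 0.640 FPKM in control and 1.68 FPKM in transfer fragments, and in old bone it was that of Ifng at 0.0777 FPKM.

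The list counts from here on stand against these shares of all genes. With oligomycin A 3.71% were called higher and 1.63% lower, in the vehicle pair 9.49% and 5.18%, and in the oligomycin A pair 10.4% and 7.73%. At an unadjusted p under 0.05 there were 2641, 3569 and 3912 of all 11902 genes in the same order. Both chains of the type I receptor were expressed in MLO-Y4. Ifnar2 rose with oligomycin A from a mean of 19.5 to 24.3 FPKM (log2 difference 0.30 ± 0.07, SE, limma adjusted p = 0.0421), and was the 1 of 5 tested receptor genes to pass. Ifnar1 had means of 13.7 FPKM with vehicle and 13.4 FPKM with oligomycin A. Ifnlr1, the specific chain of the interferon lambda receptor, was at or near 0 in all MLO-Y4 groups. In the vehicle pair Ifngr2, a chain of the interferon gamma receptor, was the 1 of 5 that rose (0.27, limma adjusted p = 0.0103). It was also the 1 of 5 that rose in the oligomycin A pair (0.29, limma adjusted p = 0.00602).

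Of 10 tested signalling genes, 0 passed with oligomycin A (limma, 2 at an unadjusted p under 0.05). All 10 differences were positive, with a median of 0.16. Irf1, a transcription factor induced by interferon gamma, had means of 5.04 FPKM with vehicle and 8.86 FPKM with oligomycin A. Its libraries spanned 3.74 to 7.24 FPKM and 7.58 to 11.4 FPKM in the same order. In the vehicle pair Jak1, the kinase bound to the receptors, rose (0.33, limma adjusted p = 0.0483). In the oligomycin A pair Jak1 rose (0.32) and Irf1 fell by 0.90 on the log2 scale. Irf1 had a mean of 4.36 FPKM in oligomycin A recipients and 6.53 FPKM in vehicle recipients. The fall is thus from the high level of the oligomycin A cells to one near that of vehicle cells.

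Of 9 feedback inhibitors, which damp interferon and cytokine signals, 3 rose with oligomycin A, against 3.71% of all genes. Socs3, which binds JAKs and cytokine receptors, rose from 76.1 to 114.0 FPKM on average (0.58 ± 0.10, SE, limma adjusted p = 0.00754). Pias1, which restrains STAT activity, rose by 0.32 and Ptpn2, a phosphatase of JAKs and STATs, by 0.26. In the vehicle pair 1 of 9 rose, Socs3 (0.89, limma adjusted p = 0.000311), with 4 of 9 at an unadjusted p under 0.05, and in the oligomycin A pair 1 of 9 fell, Pias1 (-0.34, limma adjusted p = 0.00327). Socs3 was also the 1 gene of all these lists whose recipient response differed from the direct response (-1.10 ± 0.14, SE, limma adjusted p = 0.00363), with means of 141.1 FPKM in vehicle recipients and 98.4 FPKM in oligomycin A recipients. Socs3 also responds to cytokines other than interferons.

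Of 45 tested antiviral interferon-stimulated genes outside the 9, 0 rose and 1 fell with oligomycin A. Over all genes 3.71% rose and 1.63% fell. The 1 that fell was Slfn2, a Schlafen family member, at 5.91 against 3.77 FPKM on average (-0.53, limma adjusted p = 0.00538). In the vehicle pair 8 of 45 rose and 1 fell, where 9.49% of all genes were called higher and 5.18% lower. The median was 0.38 against 0.03 over all genes. Slfn2 (0.53), Pnpt1 (0.44) and Trim21, a cytosolic antibody receptor (0.51), rose, and Isg20, an exonuclease, fell by 0.26 on the log2 scale. In the oligomycin A pair 3 rose, Slfn2 (1.00), Bst2 or tetherin (0.42) and Pnpt1 (0.24), and Isg20 fell by 0.21. These counts, 3 and 1 of 45, lie below the 10.4% and 7.73% of all genes called higher and lower there. Rsad2 and Isg20 were both lower in recipients of either supernatant, while Slfn2 and Pnpt1 were higher.

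Of 11 tested interferon-inducible GTPases 0 passed with oligomycin A (limma, 1 at an unadjusted p under 0.05, median 0.15). In the vehicle pair 2 rose, against 9.49% of all genes. They were Irgm1 (0.86, limma adjusted p = 0.00335) and Irgm2 (0.81, limma adjusted p = 0.0186). Irgm1 had means of 5.16 FPKM in vehicle cells and 10.2 FPKM in vehicle recipients. In the oligomycin A pair 1 of 11 rose, again Irgm1 (0.52, limma adjusted p = 0.0280), against 10.4% of all genes. Of 4 tested interferon-responsive chemokines 1 passed with oligomycin A, with 3 of 4 at an unadjusted p under 0.05 (limma) and 3 of 4 positive. The 1 was Cxcl10, which rose from 11.95 to 19.4 FPKM on average (0.66 ± 0.17, SE, limma adjusted p = 0.0473). Ccl7 did not pass, at 50.6 to 61.8 FPKM with vehicle and 79.1 to 82.6 FPKM with oligomycin A. Neither did Ccl2, at 101 to 116 FPKM and 129 to 134 FPKM in the same order. In the vehicle pair Ccl7 (0.52) and Ccl2 (0.29) rose.

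Of 14 tested nucleic acid sensors and adaptors, 0 passed with oligomycin A (limma, 2 at an unadjusted p under 0.05). In the vehicle pair 2 rose, against 9.49% of all genes. They were Ifi204 (0.35) and Ticam1 (0.34), the adaptor of the endosomal RNA sensor TLR3. Of 3 tested ISG15 conjugation genes, 0 passed with oligomycin A and 0 in the vehicle pair (limma, 1 at an unadjusted p under 0.05 in each), and Ube2l6, the conjugating enzyme, rose in the oligomycin A pair (0.56, limma adjusted p = 0.0480). Of 11 tested antigen presentation genes, 0 passed in any of these 3 comparisons (limma, 2 at an unadjusted p under 0.05 in each). Between recipients no gene of any of these lists passed (limma). There 2 of 9 feedback inhibitors were at an unadjusted p under 0.05 and no gene of the other lists, against 962 of all 11902 genes.

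ADP at 2 µM for 2 h gave no call among the members. Of 9 members 4 had a mean of at least 1 FPKM and entered the fit, and 0 passed (limma, 0 at an unadjusted p under 0.05, against 0.0603% of all genes called). Isg15 stood at 11.4, 10.9 and 10.8 FPKM without ADP and at 10.6, 11.0 and 12.8 FPKM with it, a log2 difference of 0.05 with a 95% interval of -0.12 to 0.22. Rsad2 stood at 1.85, 1.66 and 1.39 FPKM without ADP and at 1.63, 1.54 and 1.40 FPKM with it, with an interval of -0.26 to 0.14. Groups overlapped in both.

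For Ifit1 the 95% interval was -0.16 to 0.23 and for Ifit2 -0.14 to 0.16. The 5 members not tested were low in both groups. With ADP they had means of 0.193 (Usp18), 0.0463 (Ifi44), 0.752 (Ifit3), 0.286 (Irf7) and 0.508 FPKM (Oasl2). Ifi44 libraries did not overlap, at 0.0544 to 0.115 FPKM without and 0.0412 to 0.0526 FPKM with ADP, levels too low for a test here. No gene of the related lists passed in this comparison (limma). At an unadjusted p under 0.05 there were 1 of 7 feedback inhibitors and 2 of 9 antigen presentation genes, against 678 of all 11604 genes.

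In bone, fewer cells of a type and less RNA per cell cannot be told apart. Transfer and control fragments of young bone showed no member past the threshold (limma, 0 of the 7 tested, 0 at an unadjusted p under 0.05, against 0.0243% of all genes called). Ifi44 and Ifit2 had means under 1 FPKM and were not tested. No gene of the related lists passed (limma, 0 at an unadjusted p under 0.05). The members' median log2 difference was 0.06, against 0.45 over all genes tested, so each value stands against a shift of most genes towards transfer. The members' median was 0.87 without control replicate 3 (6 members tested), 0.47 without transfer replicate 3 and -0.24 without transfer replicate 2, and it was also negative without control replicate 1 (-0.11) or control replicate 2 (-0.07).

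Replicates of young bone disagreed with each other. Ifit3 stood at 0.717, 0.518 and 20.9 FPKM in control fragments and at 5.06, 3.10 and 0.271 FPKM in transfer fragments. Usp18 stood at 0.662, 0.283 and 9.15 FPKM against 3.82, 9.78 and 0.156 FPKM. In both genes 1 control library was far above its group and 1 transfer library far below, and the groups overlapped.

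These same libraries recurred. Control replicate 3 was the highest of its group for 8 of 9 members, all but Ifit2, and transfer replicate 3 the lowest of its group for 8 of 9, all but Ifi44. Transfer replicate 3 also had the highest rRNA-like, 7S and satellite share of the 6 young bone libraries (90.9%), and transfer replicate 2 the lowest (13.2%). Isg15 stood at 2.34, 3.04 and 11.0 FPKM in control and 6.88, 7.73 and 2.93 FPKM in transfer fragments. Rsad2 was more even, at 1.81, 1.19 and 2.41 against 4.55, 5.87 and 1.76 FPKM, and its log2 difference of 0.77 had a 95% interval of -0.48 to 2.02 (limma adjusted p = 0.900). Leukocyte markers summed to 9.72 to 13.7 FPKM in control and 8.95 to 60.0 FPKM in transfer libraries, lowest in transfer replicate 3. Their part in these values was not tested.

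With rRNA-like, 7S and satellite genes left out of the total, Rsad2 spanned only 1.84 to 3.33 FPKM over the 6 libraries. Ifit3 still stood at 0.906, 0.796 and 21.2 in control and 3.71, 1.26 and 0.462 in transfer fragments on that scale. The high Ifit3 of control replicate 3 remained after this rescaling, and that library was still the highest of its group for 8 of 9 members. Transfer replicate 3 was then the lowest of its group for 3 of 9 members, Usp18, Ifit3 and Oasl2, and the highest for 2, Irf7 and Ifi44, while transfer replicate 2 was the lowest for 5 of 9. The low values of transfer replicate 3 thus depended on the scaling for most members.

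Old cortical bone had a different profile of members. Rsad2 was the most abundant, at 25.4, 19.7 and 29.8 FPKM, followed by Isg15 at 16.7, 17.6 and 23.7 FPKM. The Rsad2 and Isg15 libraries overlapped in range. Usp18 (4.54, 5.12 and 5.35 FPKM) and Irf7 (3.60, 3.26 and 3.36 FPKM) came next and were steady between libraries.

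Below them Ifit3 stood at 2.04, 1.81 and 2.76 FPKM, Oasl2 at 1.40, 1.39 and 2.15 FPKM and Ifit1 at 2.67, 1.24 and 0.585 FPKM, with overlapping ranges. Ifit2 (0.505, 0.599 and 0.0821 FPKM) and Ifi44 (0.140, 0.0383 and 0.206 FPKM) were lowest. Leukocyte markers summed to 265 to 332 FPKM in these libraries, and their part in the members' levels was not tested. No untreated young cortical bone table was analysed here, so these are levels with no comparison by age.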

How the data were processed

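Libraries came from poly(A)-selected RNA (labels' protocols). What the authors deposited are FPKM values, in 4 tables of 55335 gene rows. HTSeq and mm10 appear, without a role, in the submitters' processing notes, and the program that computed FPKM, its scaling total and its use of strand are not given in the sources used here. Sample titles gave the groups. For vehicle samples the treatment label contradicts title and protocol by naming the drug, and all labels give 50 mM where the protocol's working concentration is 50 µM. Another 21 of 48 samples (7 of 16 groups, among them 1 µM ADP and the shRNA groups) were not analysed here. Members and gene lists were chosen with earlier results of these data known.

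Low FPKM values were whole multiples of 1 fragment within 0.1 for only 41.2% to 48.2% of values in MLO-Y4 and 23.2% to 31.0% in bone, so counts were not recovered. Tests used limma 3.58.1 in R 4.3.3 with a trended variance prior on log2(FPKM + 1), for genes with a mean of at least 1 FPKM over the libraries of the fit, with Benjamini-Hochberg adjustment over all genes tested and a threshold of 0.05. The pseudocount understates changes of low genes. The 12 libraries of the oligomycin A table shared 1 fit, and the ADP and young bone tables had 6 libraries each. Fits were tested on simulated data. Named were all members, up to 4 called genes per list by p, the receptors and signalling genes with fixed roles, and the 5 genes most like the members. Alternatives were other pseudocounts, filters, scalings and variance priors, a block on replicate number, each library left out, and fits of only the libraries compared. Some results on signalling genes are not reported here.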

Additional observations from a re-analysis of the deposited data

How the results depend on the processing

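Fold changes of single members kept their direction where called, and of all single-member values under the alternatives 1259 kept their side of the threshold, 30 lost and 2 gained it. For oligomycin A against vehicle, the count of members called was 1 as reported, 0 with no filter on low values and 0 to 2 with each library left out. For the vehicle pair it was 5 as reported, 2 with no filter, 1 with only the 6 libraries compared and 1 to 6 with each library left out. Counts for recipients, for the difference between responses, for ADP and for young bone were 0 throughout, and for the oligomycin A pair 1 throughout. With a replicate block the counts were 1 (oligomycin A), 0 (recipients), 0 (difference between responses), 5 (vehicle pair), 1 (oligomycin A pair), 0 (ADP) and 0 (young bone), as without it. Samples with the same number deviated together at r from -0.23 to 0.06. Samples with different numbers were not set beside them, so this does not settle whether the numbers pair samples. The count over all genes ranged from 241 to 1226 for oligomycin A (636 as reported), 7 to 89 for recipients (46), 24 to 110 for the difference (53), 495 to 2209 for the vehicle pair (1746), 454 to 2681 for the oligomycin A pair (2156), 0 to 40 for ADP (7) and 0 to 7 for young bone (4). The cause of these shifts was not tested. The difference between responses could not be fitted with only 6 libraries. With 1 more A in the promoter motif, 4 of 8 members held it in place of 5, and 3.99% of all genes with a window. Rough depth in bone and 3 libraries per group limit what differences were detectable.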
